A study of Mus musculus with 9 samples.

Results

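Carbonic anhydrases were measured in the enamel organs of mouse pups raised under early life adversity (ELA) and of control pups. The genes Car2, Car3, Car4, Car5b, Car6, Car9, Car11, Car12, Car13 and Car14 were taken by symbol, and all 10 were found, each on 1 row, among 54532 genes of the count table. The RNA came from the first-molar enamel organs of 5 ELA and 4 control male pups on postnatal day 12, with 1 library per mouse. ELA pups lived in cages with little bedding and nesting material from shortly after birth, and control pups lived in standard cages. The study reported a lower mean body weight for the sequenced ELA pups than for the sequenced controls, which it calls weight-matched. It excluded its lightest ELA mice after measuring enamel volume and density, before its other analyses. Every pup of either group carried the Crh-IRES-Cre driver and the Ai14 tdTomato reporter on a C57BL/6 background, so these alleles do not separate the groups. Mice are named by their titles. ELA titles start with t-203 (3 mice) or t-205 (2 mice) and control titles with c-202 or c-204 (2 mice each), numbers whose meaning the labels do not give, and none of them occurs in both groups. The labels do not say whether mice that share a number are littermates, and the p-values treat each mouse as independent. For its qPCR the study used enamel organs of 4 control males of 2 litters and 5 ELA males of 2 litters. It does not say whether these are the mice that were sequenced.

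Carbonic anhydrases catalyze the reversible hydration of carbon dioxide to bicarbonate and a proton. During enamel maturation the growth of hydroxyapatite crystals releases protons, and ameloblasts, the epithelial cells that line the enamel, supply bicarbonate that buffers the matrix. The family is divided by where the enzyme works: Car2, Car3 and Car13 are cytosolic, Car5b is mitochondrial, Car6 is secreted, Car4, Car9, Car12 and Car14 are held at the cell surface, and Car11 is a related protein without catalytic activity. Whether these transcripts differed between ELA and control enamel organs was the comparison made here.

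Total counts per library were 18056774 to 32110160. Levels are given as CPM, the count of a gene relative to a fixed library size after TMM normalization, and levels are compared between genes as FPKM, which also divides by the gene length in the table. The defining transcripts of ameloblasts were abundant in every library: the summed level of Klk4, Odam, Amtn, Wdr72 and Slc24a4, markers of the maturation stage, was 24440 to 42910 CPM under ELA and 29890 to 41540 CPM in controls. Mouse t-203-1-4 of the ELA group was unlike the others, with 228 genes at 2 CPM or more and at least 10 times their level in any other library. Its summed level of 7 neuronal markers was 433 CPM against 54.2 to 106 CPM in the other 8 libraries, so values with and without it are given where it matters.

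Car3, Car6 and Car12 were higher in every ELA mouse than in any control mouse. Car6, the secreted enzyme, had the largest difference at 3.40-fold, and Car3 and Car12 were 1.99-fold and 2.03-fold higher. In RNA from a whole tissue, more cells of a type and more RNA per cell cannot be told apart. No carbonic anhydrase gene passed an adjusted p of 0.05 in edgeR's quasi-likelihood test over 15909 genes, where 0.0377% of all genes were called higher and 0.0251% lower. DESeq2 called these 3 genes higher on the same counts, where it called 0.411% of 19218 genes higher and 0.307% lower. Limma-voom called no member in either direction, with 0.0377% of genes higher and 0.0189% lower. Of the 10 genes, 8 had enough counts to be tested, and 4 of these (Car2, Car3, Car6 and Car12) had an unadjusted edgeR p below 0.05 in the higher direction, against 3.56% of all genes. None did so in the lower direction, where 2.89% of all genes did. The median log2 fold change was 0.35 over the 8 tested genes and 0.013 over all genes tested. Groups that did not overlap, with ELA above, were found for 3 of the 8 and for 1.39% of all genes, and with ELA below for none of the 8 and for 1.29% of all genes.

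**Figure D1:**
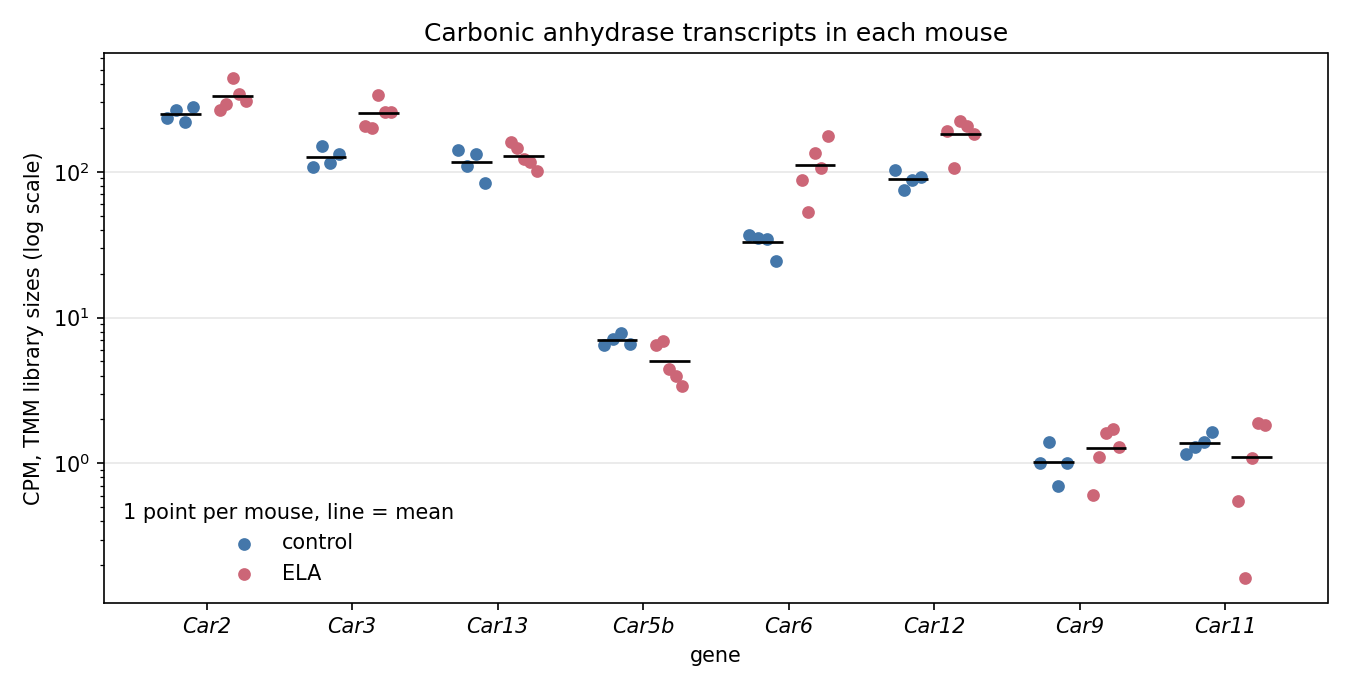
CPM (vertical axis, log scale) of the 8 tested carbonic anhydrase genes (horizontal axis) by group, where each point is 1 of 4 control or 5 ELA mice and a line marks the mean. ELA points lie above all control points for Car3, Car6 and Car12, and the groups overlap for Car2, Car13, Car5b, Car9 and Car11.

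The regions upstream of Car6 and Car12 are shown because these are the genes with non-overlapping groups that the RefSeq promoter table (GRCm38.p6) lists. For Car12 they are the 250 bases before the start, at chr9:66713436-66713685 (plus strand). For Car6 the RefSeq start lies inside the gene as the count table places it, so that 197 of the 250 bases before it also lie inside that gene. The 53 bases upstream of the gene as counted are shown, at chr4:150201333-150201385 (minus strand). Both are read 5′ to 3′ on the strand of the gene.
Car6: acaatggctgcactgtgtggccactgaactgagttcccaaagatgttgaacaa
Car12: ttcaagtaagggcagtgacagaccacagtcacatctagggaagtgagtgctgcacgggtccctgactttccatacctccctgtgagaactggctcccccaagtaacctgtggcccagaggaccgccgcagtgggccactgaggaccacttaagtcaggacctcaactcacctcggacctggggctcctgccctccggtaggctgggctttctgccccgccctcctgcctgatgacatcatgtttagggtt
The 250 bases before each RefSeq start were searched on both strands for TAATTG, the core recognized by many homeodomain proteins such as those of the Dlx family, for ACGTG, the core of the hypoxia response element, and for CACGTG, the palindromic E-box, which holds ACGTG on both strands. Capitals would mark a match, and neither sequence shown holds one. Of the 10 genes, 7 are in the promoter table, with 8 starts, and 4 of these windows reach into the gene as counted. TAATTG was found in the window of Car6 alone, against 7.17% of 32851 promoters, and CACGTG also there, against 6.02%. Both lie in the part of the Car6 window that is inside the gene as counted. ACGTG or its complement was found for Car6, Car9 and Car14, against 16.6% of promoters. A match of letters is a description of the sequence, and binding was not measured. Car2, Car3 and Car13 are not in that table.

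Among the cytosolic enzymes, Car3 differed most between the groups. Car3 has little carbon dioxide hydratase activity and is abundant in muscle and fat. It lies on chromosome 3 from 14863512 to 14872523 (plus strand). Its level was 107, 151, 114 and 132 CPM in control mice c-204-1-1, c-204-1-2, c-202-1-1 and c-202-1-2. It was 206 and 200.0 CPM in ELA mice t-205-1-1 and t-205-1-3 and 336, 257 and 257 CPM in t-203-1-3, t-203-1-4 and t-203-1-5. The lowest ELA mouse was above the highest control mouse, and the mice titled t-203 were above those titled t-205. The mean was 251 ± 54.7 CPM (SD, n = 5) under ELA and 126 ± 19.6 CPM (SD, n = 4) in controls, giving a log2 fold change of 0.99 (95% confidence interval 0.60 to 1.38, adjusted p = 0.0877 from edgeR). The adjusted p was 7.44e-05 from DESeq2 and 0.0884 from limma-voom, and Car3 ranked 24 by p among 15909 genes. Markers of skeletal muscle and fat, other tissues rich in Car3, were low but not absent. The summed level of 8 muscle markers was 6.19 to 65.4 CPM under ELA and 5.04 to 50.8 CPM in controls, with Tnnc2 at 0. Of the 7 muscle markers tested, 6 had a positive log2 fold change (median 0.37), as Car3 did, and none had an unadjusted p below 0.05. Of 7 adipocyte markers, 6 stayed below 1 CPM in every library, with Lep at 0. The remaining one, Fabp4, a fatty acid binding protein that capillary endothelium also makes, was at 4.57 ± 1.76 CPM (SD, n = 5) under ELA and 1.58 ± 0.494 CPM (SD, n = 4) in controls. Its log2 fold change was 1.53, with an adjusted p of 0.226 from edgeR, 0.00820 from DESeq2 and 0.345 from limma-voom. The adipocyte list summed to 2.25 to 7.02 CPM under ELA and 1.06 to 2.93 CPM in controls. The part of muscle or fat in the level of Car3 was not tested.

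Car2, a fast cytosolic enzyme of ameloblasts that is also made in osteoclasts and red blood cells, was the most abundant member and differed less. Its gene lies downstream of Car3 on the same strand, from 14886273 to 14900770, with 13749 bases between them. Car2 was at 235, 267, 219 and 277 CPM in the control mice, in the order used for Car3. It was at 264 and 293 CPM in the mice titled t-205 and at 439, 342 and 307 CPM in those titled t-203. The mouse t-205-1-1 fell within the control range and the other 4 ELA mice were above it, so the groups overlapped. The log2 fold change was 0.40 (95% confidence interval 0.041 to 0.76, unadjusted p = 0.0319 and adjusted p = 0.695 from edgeR). Markers of the other cells that make Car2 were not higher with it. Of 8 osteoclast markers, 7 were tested and all 7 had a negative log2 fold change (median -0.57, none past the adjusted p), with summed levels of 189 to 682 CPM under ELA and 406 to 700.2 CPM in controls. Of 6 erythrocyte markers, 5 had a negative log2 fold change (median -0.96 over the 6). The 6 summed to 160.0 to 379 CPM under ELA and 365 to 864 CPM in controls. An unadjusted edgeR p below 0.05 in the lower direction was found for 2 osteoclast and 3 erythrocyte markers, against 2.89% of all genes. DESeq2 called 1 erythrocyte marker lower, Hbb-bs (adjusted p = 0.0396), against 0.307% of all genes, and edgeR and limma-voom called none. Hbb-bs also had every ELA mouse below every control mouse, against 1.29% of all genes.

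Car13, the remaining cytosolic enzyme, lies in the same group of genes on chromosome 3, from 14641727 to 14663002, and Car13 to Car2 span 259044 bases. It was at 142, 109, 133 and 84.3 CPM in control mice and at 159, 144, 122, 117 and 101 CPM in ELA mice, in the same order of mice. The groups overlapped over most of their range, and the mice titled t-205 were the highest. Its log2 fold change was 0.14 (95% confidence interval -0.26 to 0.53, adjusted p = 0.999 from edgeR), an interval of 0.836 to 1.45 as a ratio of ELA to control. Car3 and Car2 varied together over the 9 mice (Pearson r of log2 CPM 0.896, as a description), while Car13 did not follow either gene (r = -0.021 with Car3 and -0.22 with Car2).

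Car6 is secreted and best known from saliva and milk. Its gene lies on chromosome 4 from 150187015 to 150201332 (minus strand). It was at 37.1, 34.8, 34.6 and 24.6 CPM in control mice c-204-1-1, c-204-1-2, c-202-1-1 and c-202-1-2. In ELA it was at 87.3 CPM in t-205-1-1, 53.0 CPM in t-205-1-3, 135 CPM in t-203-1-3, 107 CPM in t-203-1-4 and 175 CPM in t-203-1-5. The controls lay close together and the ELA mice spread over a wide range above them, again with the mice titled t-203 highest. The mean was 111 ± 46.4 CPM (SD, n = 5) under ELA and 32.8 ± 5.57 CPM (SD, n = 4) in controls, giving a log2 fold change of 1.77 (95% confidence interval 1.11 to 2.42). The adjusted p was 0.0791 from edgeR, 5.16e-07 from DESeq2 and 0.0884 from limma-voom, and Car6 ranked 20 by p and 149 by fold change. Salivary gland markers were low. The 6 markers summed to 0.931 to 4.06 CPM under ELA and 1.40 to 2.38 CPM in controls. Bpifa2 was at 0, and Dcpp1 and Dcpp2 stayed below 1 CPM in every library. Amy1 was at 0.988 CPM under ELA and 0.946 CPM in controls, and Bhlha15 at 0.581 and 0.749 CPM. Aqp5, a water channel, had too few counts to be tested and was at 0.768 CPM under ELA (0 to 1.65 CPM) and 0.162 CPM in controls (0.0960 to 0.241 CPM), with overlap between the groups. The part of salivary gland in the level of Car6 was not tested.

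Car12, a transmembrane enzyme whose catalytic domain faces the outside of the cell, was the only abundant member held at the cell surface. It lies on chromosome 9 from 66713686 to 66766845. Its level was 102, 75.2, 87.9 and 92.3 CPM in the control mice, in the same order. In ELA it was 190 CPM in t-205-1-1, 106 CPM in t-205-1-3, 224 CPM in t-203-1-3, 206 CPM in t-203-1-4 and 182 CPM in t-203-1-5. Mouse t-205-1-3 was just above the highest control mouse and the other 4 ELA mice were well above it. The log2 fold change was 1.02 (95% confidence interval 0.58 to 1.46), with an adjusted p of 0.110 from edgeR, 0.000661 from DESeq2 and 0.151 from limma-voom. Without mouse t-205-1-3, which was the lowest ELA mouse for Car3, Car6 and Car12, edgeR called Car6 (adjusted p = 0.00816) and Car12 (adjusted p = 0.0124), and Car3 had an adjusted p of 0.0598. Without mouse t-203-1-4, the adjusted p was 0.114 for Car3, 0.0970 for Car6 and 0.172 for Car12. Leaving out any 1 control mouse kept the log2 fold changes at 0.92 to 1.83 over these genes and gave no call.

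The other surface enzymes were scarce. Car9, which is induced by hypoxia in many tissues, had 11 to 42 counts per library, at 1.26 ± 0.443 CPM under ELA and 1.03 ± 0.286 CPM in controls (log2 fold change 0.30, 95% confidence interval -0.53 to 1.13). An annotated antisense gene, Gm12454, overlaps Car9, and since strand handling is unknown their reads cannot be told apart. Of 8 genes of the hypoxia response, 6 were positive (median log2 fold change 0.096), and none had an unadjusted edgeR p below 0.05. Car14 had 1 to 12 counts per library, too few to be tested, and overlaps Aph1a on the other strand. Car4, an enzyme tethered to the membrane of capillary endothelium, had 23 counts in ELA mouse t-203-1-4 and 0 counts in the other 8 libraries. There 0 counts allow up to 0.0934 to 0.166 CPM (3 counts over the library total without TMM normalization, counting error only). The 8 endothelial markers were present in every library, at a summed 435 to 498 CPM under ELA and 427 to 561 CPM in controls.

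The mitochondrial Car5b ran in the opposite direction to the abundant members. It lies on chromosome X from 163976822 to 164027997. It was at 6.50, 7.14, 7.87 and 6.53 CPM in control mice, at 6.46 and 6.91 CPM in the mice titled t-205 and at 4.42, 3.94 and 3.40 CPM in those titled t-203. The lower ELA mean came from the mice titled t-203, and those titled t-205 were at the control level. The log2 fold change was -0.48 (95% confidence interval -1.01 to 0.040, adjusted p = 0.83 from edgeR). Car11 had 3 to 59 counts per library, with means of 1.10 ± 0.762 CPM under ELA and 1.38 ± 0.198 CPM in controls and a log2 fold change of -0.30 (95% confidence interval -1.48 to 0.88).

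**Figure D2:**
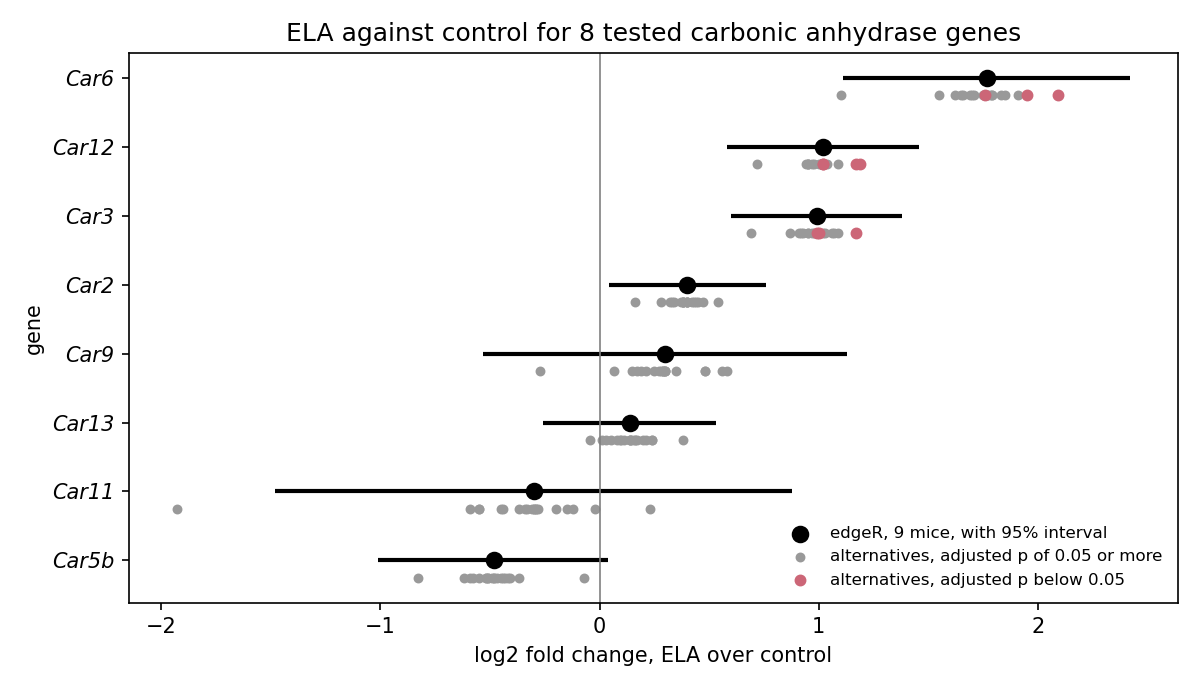
Log2 fold change of ELA over control (horizontal axis) for the 8 tested genes, with edgeR's estimate and 95% interval in black and 20 alternative settings as small points beneath, red where the adjusted p was below 0.05. Car6, Car12 and Car3 stay above 0 in each setting and hold all the red points, and Car9, Car13 and Car11 cross 0.

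The spread within ELA followed the title numbers for several members. The mean of Car6 was 139 CPM in the 3 mice titled t-203 and 70.1 CPM in the 2 titled t-205, against 29.6 CPM (c-202) and 36.0 CPM (c-204) in controls. For Car12 the means were 203.8 and 148 CPM in ELA, against 90.1 and 88.8 CPM in controls. The numbers overlapped for Car12, with t-205-1-1 (190 CPM) above t-203-1-5 (182 CPM) and t-205-1-3 (106 CPM) lowest. Car5b was at 3.92 CPM in t-203 and 6.69 CPM in t-205. Without the t-203 mice, the log2 fold changes of Car3, Car6 and Car12 were 0.69, 1.10 and 0.72 (adjusted p = 0.552, 0.367 and 0.658 from edgeR). Without the t-205 mice they were 1.17, 2.09 and 1.19, and all 3 passed (adjusted p = 0.0323, 0.00443 and 0.0195 from edgeR). Because each number occurs in 1 group, no comparison of ELA with control within a number could be made. With counts summed by number, giving 2 sums per group, none of the 3 passed (adjusted p = 0.243, 0.619 and 0.188).

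Per gene length, Car2 was the most abundant carbonic anhydrase transcript in both groups. In control mice the mean level was 103 FPKM for Car2, 50.9 FPKM for Car13, 44.0 FPKM for Car3, 18.0 FPKM for Car6 and 11.8 FPKM for Car12, and the other 5 genes were at 1.10 FPKM or less. Of these neighbours, Car13 and Car3 did not differ beyond their spread, with Car13 the higher in 2 of 4 mice. In ELA mice the order was Car2 at 136 FPKM, Car3 at 87.7 FPKM, Car6 at 61.3 FPKM, Car13 at 55.9 FPKM and Car12 at 23.9 FPKM. There Car2 was above Car3 in 5 of 5 mice, Car3 above Car6 in 4 of 5 and Car6 above Car13 in 3 of 5, and the ranges of each of these pairs overlapped. Among the scarce genes, the ranges of Car11 and Car9 overlapped in both groups, and in ELA so did those of Car5b and Car11, Car9 and Car4, and Car4 and Car14.

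The summed level of the 10 genes was 232, 242, 221 and 225 FPKM in the control mice and 325, 299, 458, 370.4 and 383 FPKM in the ELA mice, in the order c-204-1-1, c-204-1-2, c-202-1-1, c-202-1-2, t-205-1-1, t-205-1-3, t-203-1-3, t-203-1-4 and t-203-1-5. Every ELA mouse was above every control mouse. Of the difference between the group means of this sum, Car3 accounted for 31.9%, Car6 for 31.6%, Car2 for 24.0% and Car12 for 8.87%. The make-up of the sum also differed. Car6 was 9.77 to 25.2% of the summed FPKM in ELA and 6.01 to 8.79% in control mice, and Car2 was 33.1 to 40.6% in ELA and 40.9 to 50.8% in control mice. Car3 was 22.1 to 25.6% under ELA and 16.1 to 21.8% in controls, also without overlap. The shares of Car12 (4.68 to 7.72% under ELA, 4.09 to 5.80% in controls) and Car13 (11.4 to 21.3% under ELA, 16.3 to 26.5% in controls) overlapped. Within a mouse, where the scaling of libraries cancels, the ratio of Car3 to Car2 was 0.576 to 0.708 in ELA and 0.386 to 0.478 in control mice. The ratio of Car6 to Car2 was 0.241 to 0.759 in ELA and 0.118 to 0.211 in control mice. The groups did not overlap in either ratio. They overlapped in the other 3 ratios computed. Car6 to Car3 was 0.418 to 1.07 under ELA and 0.294 to 0.545 in controls, Car12 to Car13 was 0.222 to 0.556 and 0.200 to 0.331, and Car3 to Car12 was 2.87 to 5.00 and 2.78 to 5.33.

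**Figure D3:**
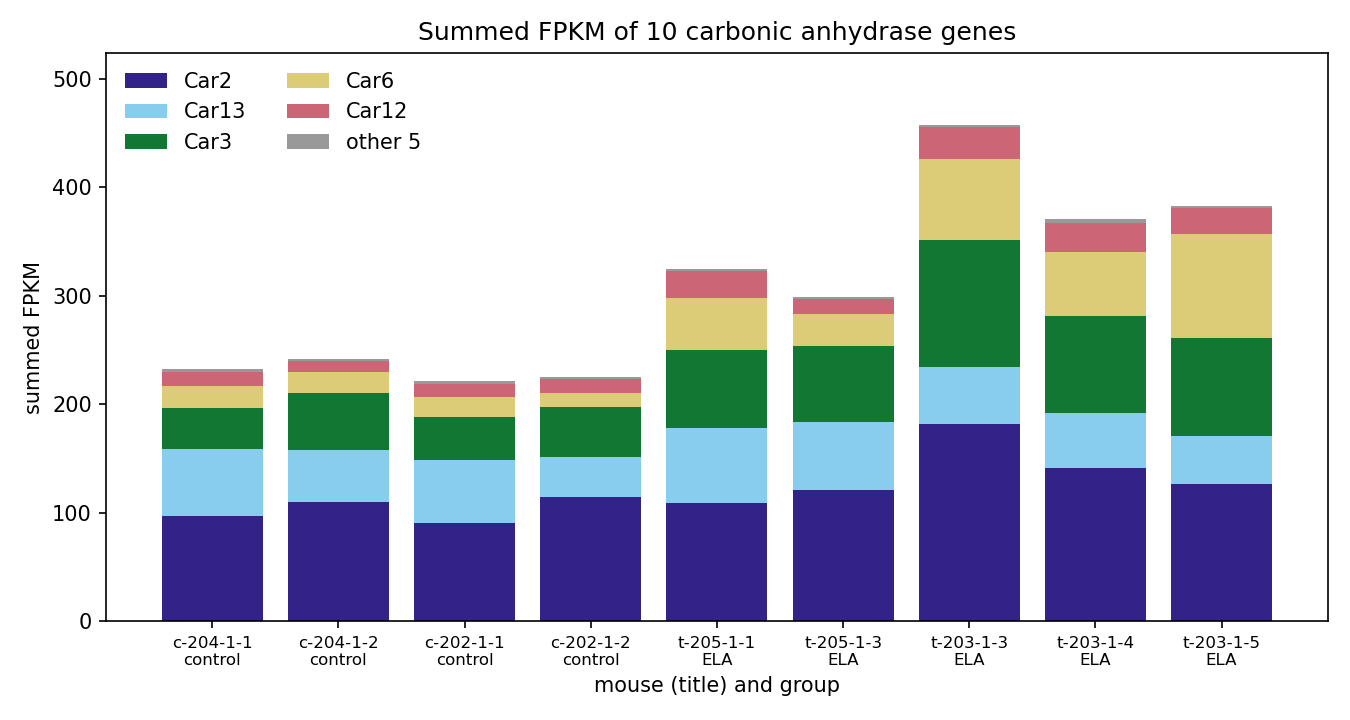
Summed FPKM (vertical axis, from 0) of the 10 carbonic anhydrase genes in each of 9 mice (horizontal axis), with the 5 most abundant genes as coloured segments and the other 5 together in grey. The 4 control bars reach 221 to 242 FPKM and the 5 ELA bars reach 299 to 458 FPKM.

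The levels of some cell type markers also ran with the groups. The summed level of the secretory-stage markers Amelx, Ambn, Enam and Mmp20 was 71390 to 130000 CPM under ELA and 50370 to 64610 CPM in controls, without overlap. Of the 4, edgeR called Amelx higher (adjusted p = 0.0477), against 0.0377% of all genes. DESeq2 and limma-voom each called 2, Amelx and Enam, against 0.411% and 0.0377% of all genes. An unadjusted edgeR p below 0.05 in the higher direction was found for 3 of the 4, against 3.56% of all genes. Amelx and Enam had every ELA mouse above every control mouse, against 1.39% of all genes. The groups overlapped for Ambn (log2 fold change 0.53, adjusted p = 0.58 from edgeR). They also overlapped for Mmp20, at 278 CPM under ELA and 263 CPM in controls (log2 fold change 0.081, adjusted p = 0.999 from edgeR). Enam, the enamelin gene, was at 389 to 4649 CPM under ELA and 48.9 to 72.4 CPM in controls (log2 fold change 5.30, adjusted p = 0.0571 from edgeR). Of the 5 maturation-stage markers, 3 had a positive and 2 a negative log2 fold change (median 0.00082) and none had an unadjusted p below 0.05. All 8 markers of dental mesenchyme and fibroblasts had a negative log2 fold change (median -0.54), and 5 had an unadjusted edgeR p below 0.05, against 2.89% of all genes. DESeq2 called 3 of the 8 lower (Col3a1, Lum and Postn), against 0.307% of all genes, and edgeR and limma-voom called none. Every ELA mouse was below every control mouse for 4 of the 8, against 1.29% of all genes. The list had summed levels of 11980 to 23360 CPM under ELA and 15670 to 31000 CPM in controls. Of 6 osteoblast markers, 4 were negative (median -0.51), and their sums overlapped at 2268 to 3555 CPM under ELA and 2577 to 3433 CPM in controls. An unadjusted edgeR p below 0.05 was found for 2 lower and 1 higher, against 2.89% and 3.56% of all genes. DESeq2 called 1 lower, Ibsp (log2 fold change -0.92, adjusted p = 0.0112), against 0.307% of all genes, and edgeR and limma-voom called none. Alpl (log2 fold change 0.32) had every ELA mouse above every control mouse, against 1.39% of all genes. The part of these shifts in the levels of Car3, Car6 and Car12 was not tested.

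The genes whose levels over the 9 mice were most like those of 4 members are given by Pearson's r of log2 CPM among 14412 genes, as a description of libraries that share the same difference between groups. For Car6 they were Chst1, a carbohydrate sulfotransferase (r = 0.956), Amelx, the amelogenin gene (r = 0.955), and Tmem38a, a cation channel of the endoplasmic reticulum (r = 0.949). For Car3 they were Zfp672 (r = 0.975), Csn3, the gene of kappa-casein (r = 0.97), and Shh, the hedgehog ligand (r = 0.965). For Car12 they were Dopey2 (r = 0.988), Atp7b, a copper pump (r = 0.976), and Pi15 (r = 0.971), and for Car2 they were Slc35g1 (r = 0.962), Gm15675 (r = 0.961) and Sybu (r = 0.95). Among the members, Car6 was most like Car12 (r = 0.914) and Car3 (r = 0.896) and ran opposite to Car5b (r = -0.859).

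Genes of bicarbonate and proton transport were compared as the setting in which the carbonic anhydrases work. Of the 22 genes of the list that are reported here, 15 were tested, 10 with a positive and 5 with a negative log2 fold change (median 0.23), and none passed the adjusted p in edgeR, DESeq2 or limma-voom. Of the 15, 1 was higher with an unadjusted edgeR p below 0.05, against 3.56% of all genes. It was Slc4a2, an exchanger of chloride for bicarbonate, at 413 CPM under ELA and 330 CPM in controls (log2 fold change 0.32, unadjusted p = 0.0372, adjusted p = 0.714). The 3 with the highest mean level over all 9 mice were Slc26a7, Slc26a1 and Slc4a4. Slc26a7, an anion exchanger, was at 66.1 FPKM under ELA and 55.3 FPKM in controls (log2 fold change 0.26, 95% confidence interval -0.28 to 0.79). Slc26a1, another anion exchanger, was at 53.8 and 47.1 FPKM (0.19, -0.80 to 1.18), and Slc4a4, a cotransporter of sodium and bicarbonate, was at 52.2 and 39.5 FPKM (0.41, -0.087 to 0.90). The groups overlapped for all 4 genes.

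**Figure D4:**
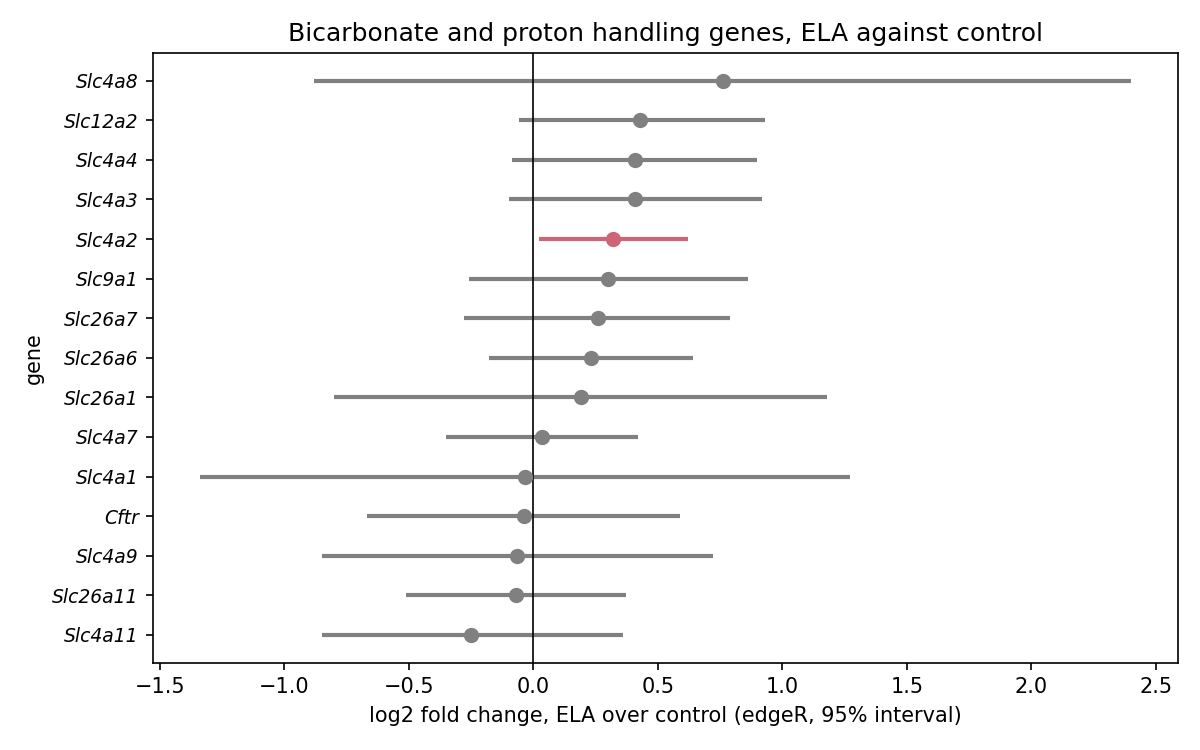
Log2 fold change of ELA over control (horizontal axis) with 95% intervals from edgeR for 15 genes of bicarbonate and proton transport, red where the unadjusted p was below 0.05. The interval of Slc4a2 lies above 0, and the other intervals shown include 0.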

How the data were processed

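The authors deposited 1 table of raw counts (whole numbers) for Ensembl genes, prepared by a commercial service. CASAVA, HISAT and HISAT2 are named in the submitters' processing notes, with no version. How reads were assigned to genes, with which strand setting and on which build is not given in the sources used here. Coordinates of all 10 genes in the table equal those of GENCODE M21 (GRCm38). All columns of sample values were assigned to mice by title, and 0 were left unassigned.

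Genes were kept with filterByExpr (count minimum 10), which left 15909 of 54532, and ELA was compared with control in edgeR 4.0.16 (R 4.3.3) with TMM normalization, robust glmQLFit and glmQLFTest. Benjamini-Hochberg adjusted p-values were taken over all genes tested, with a threshold of 0.05. Standard errors were derived from the F statistic. DESeq2 1.42.0, the tool of the study, and limma-voom 3.58.1 were alternatives, beside other scalings, no filter, leaving out mice or title numbers, and sums by title number. The scripts were tested on simulated counts with changes of 2-fold and 4-fold. Their dispersions were those that edgeR estimated from these data. Of the calls made there, 18.2% were false in DESeq2, 5.95% in edgeR and 6.04% in limma-voom. Of the 2-fold changes, DESeq2 recovered 85%, edgeR 76% and limma-voom 72%. Of the 4-fold changes they recovered 99%, 98% and 99%. Log2 CPM used a prior count of 2, and FPKM used TMM library sizes and the gene lengths of the table. Every pair of libraries within a group differed by more than counting error (lowest ratio of chi-square to degrees of freedom 21.3).

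The members and lists were chosen with earlier results of these data known. Genes named are the 10 members, cell type markers, the bicarbonate genes with an unadjusted p below 0.05 or among the 3 highest mean FPKM, and the 3 genes most correlated with each of Car2, Car3, Car6 and Car12 (mean of at least 1 CPM). Of the bicarbonate list, 1 gene is not reported here.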

Additional observations from a re-analysis of the deposited data

Results flagged for a closer look

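Among 19 groups of mice with values for the 10 genes, 1 held a mouse whose gap to the others was large for the range of its group, and chance gives about 5% of groups. This was Car4 in ELA, which mouse t-203-1-4 had at 1.01 CPM while the other 4 ELA mice had 0 counts. The same library held 433 CPM of neuronal markers, and its part in the Car4 value was not tested.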

How the results depend on the processing

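In edgeR with all 9 mice, 0 carbonic anhydrase genes were called higher and 0 lower. The number called higher was 3 in DESeq2, 2 without a filter on low counts (Car3, adjusted p = 0.0162, and Car12, adjusted p = 0.0205, while Car6 had 0.177) and 3 without the mice titled t-205. It was 0 to 2 over the 9 fits that left out 1 mouse, and the 2 calls came without ELA mouse t-205-1-3. The cause was not tested. No setting called a member lower or a reported gene of bicarbonate and proton transport in either direction. Over 20 alternatives the log2 fold change was 0.69 to 1.17 for Car3, 1.10 to 2.09 for Car6 and 0.72 to 1.19 for Car12, and the adjusted p was 7.44e-05 to 0.9996, 5.16e-07 to 0.9996 and 0.000661 to 0.9996, the highest without the mice titled c-204. The direction changed for Car9 without the mice titled t-203 (log2 fold change -0.27), and without the mice titled t-205 for Car11 (0.23) and Car13 (-0.044). No paired analysis was possible because no label ties an ELA mouse to a control mouse: replicate numbers only follow the order of the samples, the meaning of the digits that end the titles is not given, and the title numbers differ between the groups. Depth limits Car4, Car9, Car11 and Car14, which had at most 59 counts in any library.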

Other observations

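Other members of the family were scarce in the enamel organ. Car7, a cytosolic enzyme of neurons, averaged 1.17 CPM under ELA and 0.999 CPM in controls, and Car1, the enzyme of red blood cells, at 0.517 and 0.602 CPM. Car15 was at 0.498 and 0.185 CPM, and Car5a had 4 counts over all 9 libraries. Car10, a related protein of the brain without catalytic activity, had 162 counts (7.10 CPM) in ELA mouse t-203-1-4 and at most 5 counts in any other library. Mouse t-203-1-4 also had the highest level of Car7, at 54 counts (2.37 CPM). These genes were taken as levels only.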
